A study of Caenorhabditis elegans with 4 samples.

Results

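The distal right arm of chromosome V of *Caenorhabditis elegans* held one of the dense fields of CEC-3 peaks in adult worms. It was taken as every peak of the authors' whole-series list on V with a midpoint above position 16900000 (WormBase WS220), up to the right end of the chromosome, and is called distal V here. The rule found 1794 of the 14075 whole-series peaks, which is 12.7% of the list and 58.7% of its 3054 peaks on V. The same interval held 403 of the 3666 peaks of ChIP replicate 1 and 427 of the 3867 peaks of ChIP replicate 2. It spans 4.02 Mb, or 4.01% of the 100.272 Mb that lie under the chromosomes' largest peak ends. The interval was selected on the density and coverage of these same peaks. Those values are therefore given as descriptions, and no test was made of them.

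The material was chromatin of whole hermaphrodites of the strain *fem-2(b245)*, genotype *fem-2(b245)III*, labelled as young adults that contain a germline and kept at 20 °C, so all tissues are mixed. *fem-2* belongs to the sex-determination pathway, and hermaphrodites need it to make sperm. Both groups, ChIP with an affinity-purified rabbit polyclonal antibody against T09A5.8 and input DNA, carry that allele, with 2 replicates each, and the labels do not say whether the replicates came from separate cultures. Only the ChIP replicates have peak lists, which give no read counts, so the depth behind each peak is unknown and the background in the input is not analysed here.

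T09A5.8 is the gene *cec-3*, which encodes a chromodomain protein. Its chromodomain recognises histone H3 methylated at lysine 9, a mark laid down in silent chromatin. In worms this mark is concentrated over the repeat-rich arms of the autosomes and is low over their gene-dense centres. Chromosome V is also the home of most genes for the seven-transmembrane receptors with which the worm's sensory neurons detect odours and tastes. The RefSeq annotation of the assembly WBcel235 places 888 of 1308 protein-coding genes of 22 such families on V, or 67.9%, against 4995 of all 19983 protein-coding genes. That assembly is a later one than WS220, so no gene was assigned to a peak.

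Peaks covered about 4 in 10 bases of distal V. Replicate 1 covered 41.4% of the interval and replicate 2 covered 39.1%, a mean of 40.3 ± 1.60% (SD, n = 2), and the whole-series list covered 53.3%. The inner right arm, which lies between the limit and the middle one of 3 equal parts of V, had 10.9% and 10.6% in the replicates in that order and 11.4% in the whole-series list. The coverage of distal V was thus 3.75 ± 0.0818-fold that of the inner right arm as the mean of the replicates (SD, n = 2). The left arm of V had 7.24% and 7.59% in the replicates, and the left arm of chromosome III, another dense arm, had 35.0% and 34.0%. Distal V stood 1.17 ± 0.0238-fold above the left arm of III in the replicates (SD, n = 2) and 1.56-fold above it in the whole-series list.

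The interval held 100.1 peaks per Mb in replicate 1 and 106.1 in replicate 2, against 33.9 and 35.7 over the rest of the genome. Of all bases under peaks, 13.4% of replicate 1, 12.4% of replicate 2 and 16.7% of the whole-series list lay in it. The whole-series list split the interval more finely, into 445.8 peaks per Mb. It was called with MACS v2 and the replicate lists with MACS, so comparisons between them also compare peak callers.

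**Figure D1:**
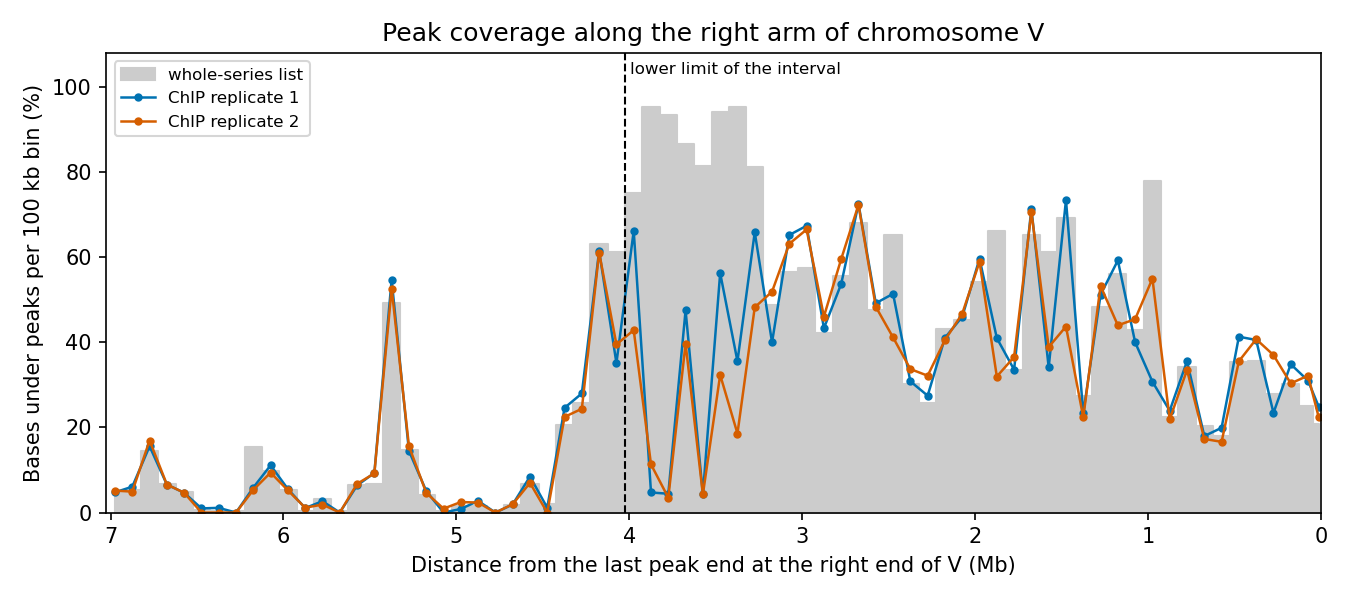
Percent of bases under peaks in 100 kb bins (vertical axis) against the distance in Mb from the right end of V (horizontal axis), with the whole-series list as a grey area, the ChIP replicates as points joined by lines, and the limit of the interval as a dashed line. The replicates stay near the grey area over most of the interval, and drop to between 3.50 and 11.3% in 3 bins near the limit where the whole-series list reaches 81.4 to 95.2%.

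The dense field begins before the limit, and coverage became higher unevenly over several bins. The 100 kb bins from 15.9 to 16.5 Mb had at most 8.46% of bases under peaks in either replicate. The bin from 16.5 to 16.6 Mb had 24.6% in replicate 1 and 22.5% in replicate 2, and the next had 28.0% and 24.4%. That from 16.7 to 16.8 Mb had 61.5% and 61.1%, and the last bin before the limit had 35.1% and 39.5%. Farther in, a separate bin from 15.5 to 15.6 Mb had 54.7% and 52.6%. The limit itself cuts through this field. The last whole-series peak before it, V 16898998 to 16899306, had a score of 6.21, and the first one inside, V 16899345 to 16903299, had a score of 21.96.

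Coverage by stretch was lowest beyond 20 Mb, with no steady fall before it. In replicate 1 the peaks covered 39.1% of the bases from 17 to 18 Mb, 47.5% from 18 to 19 Mb, 45.8% from 19 to 20 Mb and 29.7% beyond 20 Mb. Replicate 2 had 34.0%, 48.0%, 44.2% and 29.3% in the same order. Both replicates thus had their lowest value in the last stretch. The whole-series list went from 79.0% to 47.7%, 54.8% and 27.5%, so its highest value was in the first of these stretches, where the replicates were not at theirs. Among the 41 bins of 100 kb or less in the interval, the mean of the replicates ranged from 3.97 to 72.4% with a median of 40.8%. It was over 30% in 31 of the 41 bins, and in 3 of the 30 bins before the limit.

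At the right end, the lists stopped at different places. The last whole-series peak, V 20923841 to 20924029, was 189 bp wide with a score of 12.25, and its end sets the right end used here. The last peak of replicate 1, V 20918312 to 20919309, ended 4720 bp before it. That of replicate 2, V 20917971 to 20919016, ended 5013 bp before it, so neither replicate list held the outermost peak.

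The gaps between peaks depended on the list. Between neighbouring whole-series peaks the median gap was 280 bp, and 77.9% of the gaps were under 1 kb. In the replicates the median gaps were 1803.5 and 1509.5 bp, and 37.1% and 40.4% of the gaps were under 1 kb. The 5 longest gaps of the whole-series list were V 19159942 to 19191024 (31.1 kb), V 18578473 to 18609455 (31.0 kb), V 20274836 to 20299601 (24.8 kb), V 20530990 to 20552517 (21.5 kb) and V 20127811 to 20146463 (18.7 kb). The replicates had almost no peak bases there either, at most 2.32% of any of the 5 gaps. Of these 5 gaps, 3 lie beyond 20 Mb, the stretch with the lowest coverage.

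Most members were under 1000 bp wide, while most bases lay in members of 1000 bp or more. The median width of the 1794 members was 464.5 bp, with quartiles of 243 and 1203 bp, against a median of 387 bp over all other whole-series peaks. Members above the median score had a median width of 1164.5 bp. The replicate peaks in the interval were wider, with medians of 2387 bp in replicate 1 and 2326 bp in replicate 2, against 2027 and 2020 bp elsewhere. Members under 300 bp were 616 in number and held 6.03% of the members' bases. Those from 1000 to 3000 bp held 27.6% and those from 3000 to 10000 bp held 33.3%. The 24 members of 10 kb or more were 1.34% of the members and held 16.1% of their bases. Elsewhere in the whole-series list 0.423% of the peaks were that wide and they held 6.67% of the bases. Of the 24 members, 15 lie in the 7 bins, named below, where whole-series coverage far exceeded replicate coverage, and 9 lie outside them. The bins were picked for that excess, so this count follows in part from the choice.

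The whole-series scores, which the authors gave on a scale that no label states, were moderate. The median score of the members was 7.47, and 6.59 over all other whole-series peaks. The interval held 7 of the 100 highest-scoring peaks of the list, 47 of the 500 highest and 116 of the 1000 highest, against its share of 12.7% of all peaks. Wide members had lower scores than wide peaks elsewhere, with a median of 34.2 for the 24 members of 10 kb or more and of 68.8 for the 52 others.

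About 1 in 2 members met a peak of both replicates. The count was 938 of 1794, or 52.3% (95% Wilson interval 49.97 to 54.6%, counting error only), where at least 1 shared bp counted as overlap. Over the whole list the share was 53.8%, so the members were near the background. A peak of replicate 1 alone was met by 197 members, a peak of replicate 2 alone by 170, and 489 members, or 27.3%, met neither, against 27.0% of the whole list. The members in both had a median width of 743 bp and a median score of 10.2. Those in neither had 264 bp and 5.32.

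Counted in bases, the lists had less in common in distal V than in the rest of the genome, a difference that was not tested. Of its 2.14 Mb under whole-series peaks, 53.5% lay under peaks of both replicates and 29.05% under neither, against 74.0% and 14.3% elsewhere. The bases under peaks of replicate 1 alone made up 10.6% and those of replicate 2 alone 6.87%, against 4.41% and 7.25% elsewhere.

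The shares of distal V and of the other peaks were close for narrow peaks and apart for wide ones. Of the members under 300 bp, 30.2% met both replicates, against 28.7% elsewhere, and from 300 to 1000 bp the shares were 59.9% and 60.4%. From 1000 to 3000 bp the share was 75.9% in distal V and 91.1% elsewhere. From 3000 to 10000 bp it was 58.3% and 86.9%, and at 10 kb or more it was 29.2%, 7 of 24, against 67.3%, 35 of 52. Since 1 shared bp was enough, the 7 include the widest member, V 16929630 to 16955517, of which replicate 2 covered 0.386%. No test was made of these differences. The shares of distal V were also counted without the 7 bins in which its lists differed most, named below. They were 86.2% from 1000 to 3000 bp, 75.8% from 3000 to 10000 bp and 66.7%, 6 of 9, at 10 kb or more. These bins were picked for whole-series coverage far above replicate coverage, so the higher shares follow in part from that choice. Bins elsewhere that met the same rule were kept, so the trimmed shares cannot be compared like for like with those elsewhere.

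**Figure D2:**
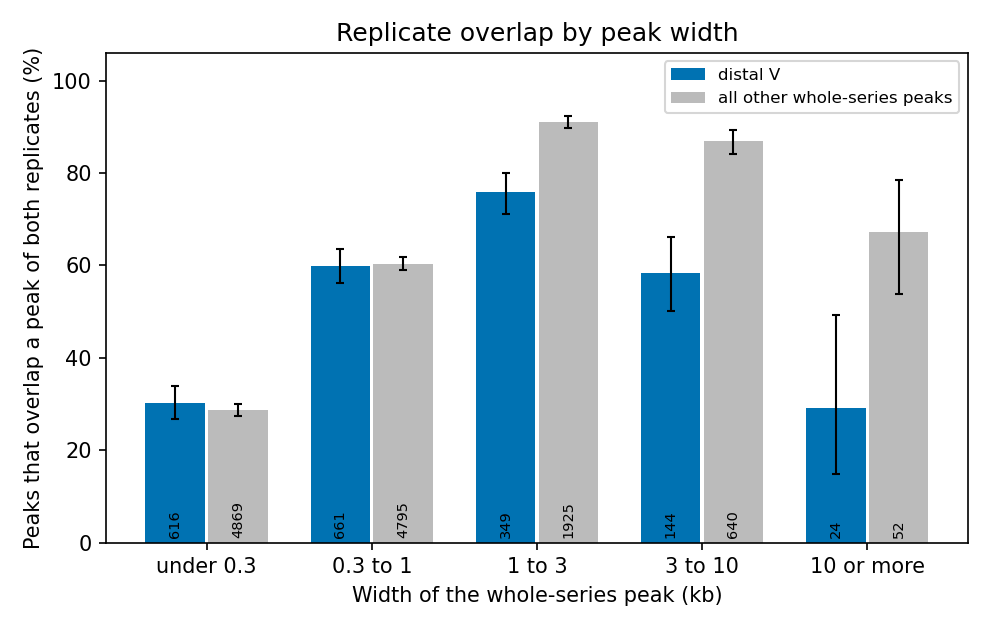
Percent of whole-series peaks that meet both replicate lists (vertical axis) by peak width in kb (horizontal axis), for distal V and for all other peaks, with 95% Wilson intervals as bars and the number of peaks at the foot of each column. The columns are alike up to 1000 bp and separate above it, to 29.2% against 67.3% for peaks of 10 kb or more.

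The replicates resembled each other over most of the interval. Of the 403 replicate 1 peaks, 351 met one of replicate 2, or 87.1% (95% Wilson interval 83.5 to 90.02%), against 89.0% over the genome. Conversely, 375 of the 427 peaks of replicate 2, or 87.8% (84.4 to 90.6%), met a peak of replicate 1, against 85.3%. They had 1.35 Mb in common, 80.9% of what replicate 1 covered and 85.5% of what replicate 2 covered. These shares were 87.8% and 90.1% in the inner right arm of V and 91.4% and 87.3% in its left arm. In the left arm of III they were 89.0% and 91.4%. Counted in bases, the replicates thus had less in common in distal V than in each of these arms, which was not tested. Where one peak met a single partner, in 253 pairs, the starts lay a median of 76 bp apart and the ends 105 bp apart. The scores of these pairs had a Spearman's rho of 0.886, a description across peaks that share the same libraries. In 31 of the 41 bins the replicates were less than 10 percentage points apart.

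The peaks that one replicate lacked were mostly narrow. Each replicate had 52 unshared peaks in the interval, with a median width of 1179 bp in replicate 1 and 1420 bp in replicate 2, against 2587 and 2443 bp for the shared ones. A few were very wide. In replicate 1 the widest unshared peaks were V 18432375 to 18457941, of 25.6 kb with a score of 135.98, and V 17493071 to 17515171, of 22.1 kb with a score of 1163.02. In replicate 2 the widest was V 19908778 to 19927258, of 18.5 kb, with a score of 3100, the value at which replicate scores pile up. Whole-series peaks covered 91.4%, 95.6% and 98.5% of these stretches in that order. Among peaks of 10 kb or more in the interval, 6 of 37 were unshared in replicate 1, or 16.2%. Over the genome it was 9 of 194, or 4.64%, and these 9 include the 6. In replicate 2 it was 4 of 33, or 12.1%, against 15 of 188 over the genome, or 7.98%, with the 4 among the 15. These differences were not tested.

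When members up to 500 bp apart were joined, they formed 651 domains with a median width of 1060 bp, and 55 of them were 10 kb or wider. The same joining gave 44 such domains in each replicate list. At 20 kb or more the lists differed, with 22 domains in the whole-series list, 14 in replicate 1 and 8 in replicate 2. The widest joined domain was 72140 bp in replicate 1 and 33400 bp in replicate 2. The 22 whole-series domains of 20 kb or more held 37.1% of all the bases of the whole-series domains. They were made of 2 to 43 peaks each, with a median of 9, and whole-series peaks filled 91.9 to 99.6% of each. Of the 14 whole-series domains over 40 kb in the genome, 8 lie in distal V.

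The widest whole-series domain of the genome lies just inside the limit. It runs from V 16984531 to 17116828, spans 132.3 kb and was made of 43 whole-series peaks with a highest score of 41.71. Peaks of replicate 1 covered 3.57% of it and those of replicate 2 covered 14.2%. The next in width in distal V, V 17519198 to 17602781, spans 83.6 kb and was 19.9% and 21.3% covered. The third, V 17313968 to 17377217, spans 63.2 kb and held no replicate peak. All of the 3 were thus largely empty in both replicates.

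The other 7 of the 10 widest domains were well covered in one replicate at most. Replicate 1 covered 99.4% of V 17463880 to 17514834 and replicate 2 covered 23.7% of it. Likewise V 16925155 to 16958515 was 100% covered in replicate 1 and 14.7% in replicate 2. In V 17218009 to 17258609 the values were 25.5% and 0%, and in V 17603615 to 17643789 they were 49.5% and 11.5%. Neither replicate had a peak in V 17145411 to 17194473, in V 17421203 to 17462644 or in V 19296753 to 19328886. Of the 10 widest domains, 9 end before 17.7 Mb, all but V 19296753 to 19328886.

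Coverage of a wide domain by a replicate was mostly nearly all or nearly none. At 20 kb or more, 5 of the 22 domains had at least 80% of their bases under peaks in both replicates, or 22.7%. This was so for 34.4% of the 64 such domains in the genome, distal V included, and for 40.5% of the 42 elsewhere. At most 20% was covered in both replicates in 9 of the 22, against 31.2% in the genome and 26.2% outside distal V. Replicate 1 had at least 80% where replicate 2 had at most 20% in 3 domains, and the reverse held in 1. Replicate 1 had a value between 20 and 80% in 2 domains and replicate 2 in 2. From 10 to 20 kb, 28 of 33 domains were covered to at least 80% in both, or 84.8%, against 88.6% in the genome, and none was at or under 20% in both. From 5 to 10 kb, 40 of 49 reached 80% in both, or 81.6%, against 87.5%. The domains covered in both at 20 kb or more include V 17970470 to 17994247, at 100% in each replicate, which was picked after its values were seen.

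**Figure D3:**
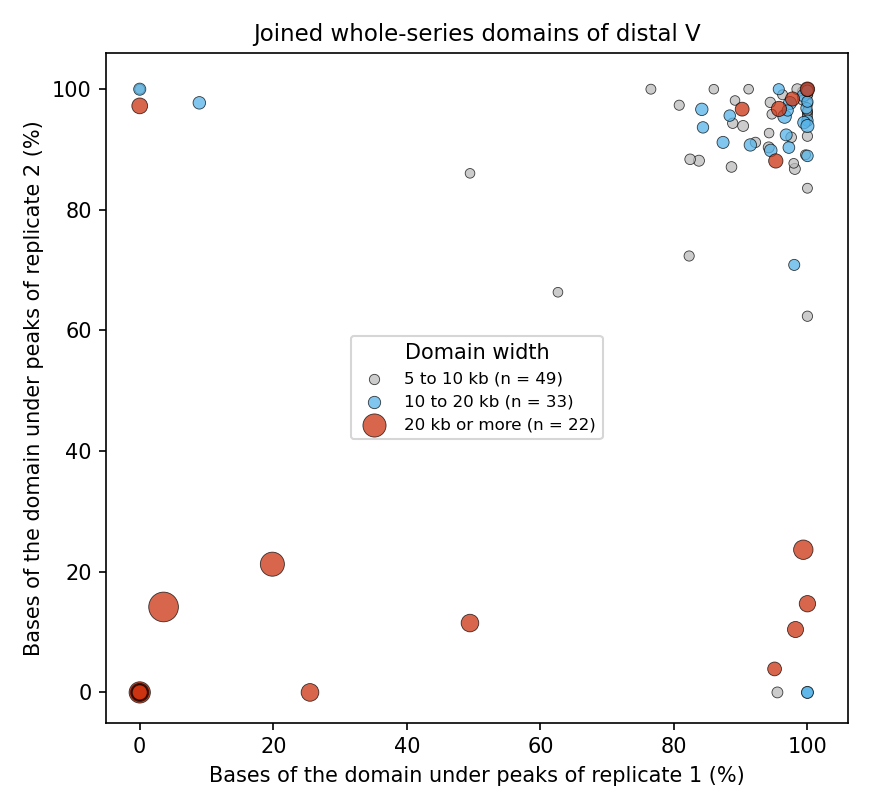
Percent of the bases of each joined whole-series domain of distal V under peaks of replicate 1 (horizontal axis) and replicate 2 (vertical axis), for domains of 5 kb or more, with the colour giving the width class and the area of a point growing with width. Most domains of 5 to 20 kb gather at the upper right, with a few at the other corners. Of those of 20 kb or more, 9 of 22 lie at the lower left, at or under 20% in both replicates. Others of that width lie at the corners where 1 replicate alone covers them.

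Some domains of 20 kb or more held no replicate peak at all. Over the 22 domains and the 2 replicates there were 18 cases with no replicate peak in the domain, 9 in each replicate. In 14 of the 18 a replicate peak lay within 2 kb of at least one end of the domain. The farther of the 2 flanking peaks lay a median of 8000.5 bp away, and up to 107812 bp. For V 17421203 to 17462644, where both lay close, replicate 1 had a peak 644 bp before the start and another 1017 bp after the end, and replicate 2 had them at 565 and 968 bp. Replicate 1 had 27 gaps of 20 kb or more between its peaks in the interval and replicate 2 had 31. Whole-series peaks filled at least 80% of 10 of these gaps in replicate 1 and of 13 in replicate 2, and under 20% of 14 gaps in each. The longest gap was 155.4 kb in replicate 1, V 17039914 to 17195277, and 158.9 kb in replicate 2, V 17037599 to 17196497. Whole-series peaks filled 95.4% and 94.8% of them.

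In 7 of the 41 bins whole-series coverage exceeded mean replicate coverage by 30 percentage points or more, a share of 17.1%. Over the genome it was 13 of 1005 bins, or 1.29%, and these 13 include the 7. No bin of the interval differed by as much in the other direction. The bin from 17 to 17.1 Mb had 95.2% in the whole-series list, 4.72% in replicate 1 and 11.3% in replicate 2. That from 17.1 to 17.2 Mb had 93.4%, 4.43% and 3.50%, and that of the 100 kb after 17.3 Mb had 81.4%, 4.30% and 4.27%. In these 3 bins both replicates were low. From 17.2 to 17.3 Mb the values were 86.7%, 47.5% and 39.7%, and from 17.5 to 17.6 Mb they were 95.3%, 35.6% and 18.6%. In the 100 kb up to 17.5 Mb they were 94.0%, 56.3% and 32.4%, and from 19.9 to 20 Mb 78.0%, 30.8% and 54.98%. Replicate 1 was the higher in the first of these last 2 bins and replicate 2 in the second. The 201 members in the 7 bins were wide, with a median of 1347 bp against 415 bp for the other members, and had a median score of 16.3 against 7.05. Of them, 52 met both replicates, or 25.9%, against 53.8% over the whole list. The bins were picked for whole-series coverage far above replicate coverage. The widths and this share therefore follow in part from that choice. The lists also differ in the caller, MACS for the replicates and MACS v2 for the whole series. No source used here gives the control or the thresholds behind each list. The parts of caller, control and thresholds in the difference cannot be told apart here and were not tested.

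**Figure D4:**
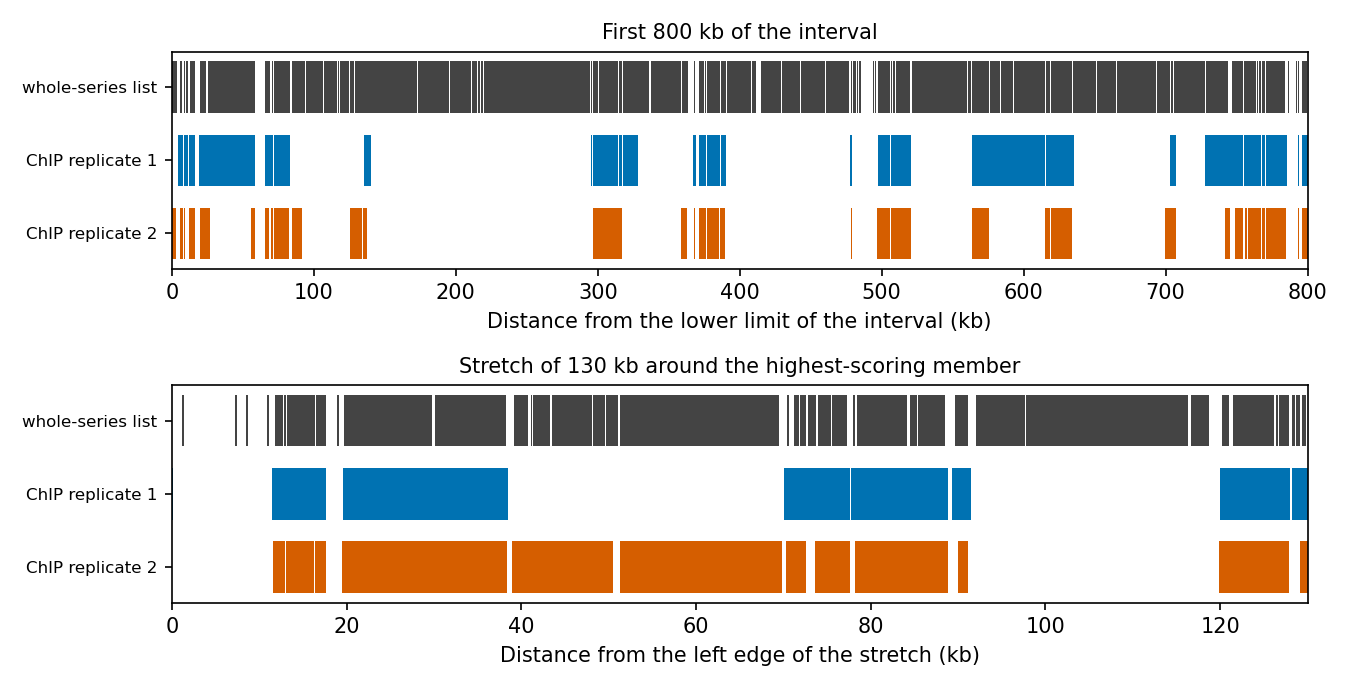
Peaks of the 3 lists drawn to scale as bars, over the first 800 kb of the interval (above, distance in kb from its lower limit) and over 130 kb around the highest-scoring member (below, distance in kb from the left edge of the stretch). In the upper panel the whole-series list fills 87.8% of the stretch, replicate 1 fills 35.6% and replicate 2 fills 25.1%. In the lower panel replicate 1 lacks a stretch that replicate 2 covers.

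The highest-scoring members gathered near 19.9 Mb. Of the 10 members with the highest scores, 5 lie between V 19887527 and 19941540. The first of all, V 19896654 to 19898238, had a score of 122.44, the ninth highest of the whole list. It lay in a replicate 2 peak of 11.6 kb with a score of 3100, and no peak of replicate 1 touched it. The members V 19900974 to 19905484 (score 97.32) and V 19908732 to 19926973 (score 86.79) also met replicate 2 alone. All 3 belong to one domain, V 19896654 to 19926973, of which replicate 2 covered 97.2% and replicate 1 had no peak. The member just before this domain, V 19887527 to 19895661 (score 102.45), was fully covered in both replicates. The next domain of 5 kb or more after it, V 19928619 to 19934684, was 100% covered in replicate 1 and 83.6% in replicate 2. Beyond that, V 19935885 to 19941540 (score 89.41) was fully covered in both.

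The other 5 of the 10 met a peak of both replicates. They are V 20408543 to 20421340 (score 99.74), V 17981860 to 17992647 (91.09), V 17926373 to 17931543 (68.98), V 18531033 to 18534456 (67.00) and V 18957441 to 18959546 (67.00). Each of them met a replicate peak with a score of 3100 in both lists, and all were fully covered except V 18531033 to 18534456, of which replicate 2 covered 93.4%. Altogether 7 of the 10 met both replicates and all 10 met replicate 2. Of all members above the median score, 68.3% met both replicates, so the 7 of 10 are near that share. The highest-scoring member that met neither replicate, V 19949659 to 19955131, had a score of 51.61. It lies in the domain V 19949442 to 19976161, of 26.7 kb, in which neither replicate had a peak.

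Some of the widest single peaks show the same split between lists, while others were shared by the replicates. The widest member, V 16929630 to 16955517, spans 25.9 kb and is the second widest whole-series peak in the genome. Replicate 1 covered it fully and replicate 2 covered 0.386% of it. The widest replicate 1 peak of the interval, V 16924804 to 16958795, spans 34.0 kb, contains this member and had a score of 71.03. The widest replicate 2 peak, V 17970262 to 17994545, spans 24.3 kb. It matched a replicate 1 peak, V 17970304 to 17994506, within 42 bp at its start and 39 bp at its end, and both had a score of 3100. The next widest members, V 17436289 to 17460457 and V 17044239 to 17068018, of 24.2 and 23.8 kb, met no peak of either replicate.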

How the data were processed

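CEC-3 binding was measured by ChIP-seq in 2 replicates. Per the labels' protocols, ground frozen adults were fixed in 1% formaldehyde for 10 min and sonicated. Reads were aligned with BWA to ce10, per the submitters' processing notes. Peaks were called with MACS for each replicate and MACS v2 for the whole series, and positions are WS220, per the file headers and source columns. The score of each peak is the authors' deposited value, used within its list only. No source used here gives the control, the thresholds or how the whole-series list combines the replicates.

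From the lists, overlaps of at least 1 bp, bases under peaks, domains (gaps of up to 500 bp joined) and 100 kb bins were computed, and the functions were tested on simulated data. Arms are the outer ones of 3 equal parts of a chromosome, and the inner right arm of V is its right one less distal V. Named regions are the 10 highest-scoring members, the 10 widest domains, the 5 longest gaps, the members at the limit and the right end, bins that differ by at least 30 points, the widest peaks and the highest member in neither replicate. Of the 5 widest peaks per list that the rule names, the leading ones are given. Wilson intervals cover counting error only, and neighbouring peaks are not independent. The members and rules were chosen with earlier results of these data known. Alternatives were other overlap rules, limits, joining gaps, better-scoring peaks and leaving out a replicate. The tools were matplotlib 3.10.9, scipy 1.17.1, pandas 2.3.3 and numpy 2.4.6 under Python 3.11.15.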

Additional observations from a re-analysis of the deposited data

How the results depend on the processing

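The share of members in both replicates, 52.3%, was 48.3% with at least 50% of the shorter peak shared, 57.6% with replicate peaks widened by 250 bp, 68.3% among members above the median score, 54.7% with the limit 500 kb further out and 55.6% without the 7 bins in which the lists differ, an alternative chosen after seeing the data. The overlap of replicate 2 by replicate 1, 87.8%, was 82.4% with each list kept to peaks above its median score. Mean coverage, 40.3%, was 53.3% in the whole-series list, 42.7% with the limit 500 kb further out, 43.5% without the 7 bins and 39.1 to 41.4% with either replicate left out. Mean density, 103.1 peaks per Mb, was 445.8 in the whole-series list, 75.8 after joining, 111.5 with the limit 500 kb further out and 100.1 to 106.1 with either replicate left out. The excess of the whole-series list from 17 to 18 Mb, 42.5 points, was 37.9 with its peaks above the median score and 39.9 to 45.0 with either replicate left out. The median width, 464.5 bp, was 1164.5 bp above the median score and 1060 bp after joining. The causes were not tested. The number of domains of 10 kb or more, 55, was 44 to 60 over its alternatives. Of the 11 domains of 20 kb or more outside the 7 bins, 5 were covered to at least 80% and 2 to at most 20% in both replicates. The bins were picked for whole-series coverage far above replicate coverage, so all values without them follow in part from that choice. No paired analysis was possible because peak lists exist only for the ChIP samples here. The depth limit is unknown, since the lists hold no read counts.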
